A study of Mus musculus with 764 samples.

Results

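The 8 genes described here encode receptors, and in 1 case a ligand, that restrain T cells: Lag3, Tigit, Pdcd1, Havcr2, Ctla4, Btla, Cd200 and Lilrb4. They were taken as the rows of those names among 23997 gene rows, and all 8 were present in both count tables, 1 for the small intestine and 1 for the spleen. The question was which of them single cells carried together. Each library was 1 sorted IL-10-producing CD4+ T cell, recognised by an eGFP reporter of Il10, from mice that also carried an mRFP reporter of Foxp3 and had been given an antibody against CD3, which activates T cells in vivo. Foxp3+ cells were included by the study as a control, so both Foxp3+ and Foxp3- cells are in each tissue. Of 764 cells, 70.3% passed the filters on depth and cell cycle, and 400 of these came from the spleen. Well positions split the spleen cells into 3 sets, which are p1 columns 1 to 12 (the first p1 set, 69.3% of its cells kept), p1 columns 13 to 24 (the second p1 set, 76.3%) and p2 (the p2 set, 63.5%). Cells of the small intestine (72.1% kept) lay on plate p2 in columns 13 to 24, so on that plate tissue and position cannot be told apart. The labels name no animal, so each tissue counts as 1 sample, no test between tissues was possible, and every interval given covers counting error only. Cells are divided by whether they held a read of Foxp3, not by the reporter.

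Co-inhibitory receptors sit in the T cell membrane and dampen activation when they meet their ligands on other cells. Several are induced by T cell activation itself, and cells that carry many of them at once are known both among exhausted T cells and among Foxp3- regulatory cells that make IL-10. LAG3 binds MHC class II beside the CD4 co-receptor, TIGIT competes with CD226 for the ligand PVR, and CTLA4 competes with CD28 for CD80 and CD86. PDCD1, better known as PD-1, recruits the phosphatase encoded by Ptpn11, and BTLA binds TNFRSF14. HAVCR2 (TIM-3) is known for marking effector cells that make interferon-γ, LILRB4 carries inhibitory motifs in its cytoplasmic tail, and CD200 is the ligand of the inhibitory receptor CD200R1.

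Kept cells held 162801 to 622997 reads, with medians of 324546 in the small intestine and 366140, 362505 and 315920 in the 3 spleen sets. Where shares of cells are compared across depth, cells were thinned to 200000 reads, which left out 5, 5, 8 and 10 shallower cells. At least 1 of the 5 measured T cell markers was read in every kept cell, and each marker in at least 97.5% of the cells of each set. Any of 6 B cell markers was read in 6.56% to 13.1% of cells and any of 7 measured myeloid markers in 2.07% to 6.56%. Any CD8 gene was read in 30.7% of small intestine cells and in 13.1% to 17.3% of cells of the spleen sets. Foxp3 had a read in 9 small intestine cells and in 85, 26 and 8 cells of the 3 spleen sets, so the first p1 set stood apart from the others in its share of such cells, and they are also shown apart.

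In the RefSeq annotation of GRCm38.p6, Lag3 lies on chr6:124904359-124912434, Havcr2 on chr11:46454931-46481255 and Lilrb4 (annotated as Lilrb4a) on chr10:51490898-51496613. Chromosome 1 holds Ctla4 at chr1:60909025-60915832 and Pdcd1 at chr1:94038305-94052553. Chromosome 16 holds Tigit at chr16:43626137-43665125, Btla at chr16:45223705-45252895 and Cd200 at chr16:45382111-45409060. Btla and Cd200 are separated by 129215 bases, with no other gene row of the tables between them. The count tables carry no coordinates, and the sources name both mm10 and an older mouse build, so these positions locate the genes and are not taken from the files.

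The 250 bases before the start that RefSeq gives as the promoter of 4 members follow, on GRCm38.p6, because these members set the tissues or the pairs below apart: Havcr2 was read in most small intestine cells, Btla and Cd200 almost only in spleen cells, and Tigit belonged to the pair that rose and fell together. For Btla, for Tigit and, by a few bases, for Cd200 this start lies inside the full span given above, which holds more than 1 start. Each runs 5′ to 3′ on the strand of the gene, and capitals mark matches on either strand to any of 4 short motifs: GGAAA (the core of NFAT sites), TGANTCA (AP-1), CTTTGA (TCF/LEF) and TGTGGT (RUNX).
Havcr2, chr11:46454681-46454930, plus strand: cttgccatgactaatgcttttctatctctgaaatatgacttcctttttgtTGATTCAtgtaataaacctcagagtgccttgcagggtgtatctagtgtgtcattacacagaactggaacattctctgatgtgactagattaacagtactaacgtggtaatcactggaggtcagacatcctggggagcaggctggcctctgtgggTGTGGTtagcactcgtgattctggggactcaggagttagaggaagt
Btla, chr16:45224087-45224336, plus strand: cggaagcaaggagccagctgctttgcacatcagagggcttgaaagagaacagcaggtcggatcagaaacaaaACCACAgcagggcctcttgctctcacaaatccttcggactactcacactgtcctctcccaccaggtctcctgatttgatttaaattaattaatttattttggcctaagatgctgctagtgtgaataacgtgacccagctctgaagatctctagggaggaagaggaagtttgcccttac
Cd200, chr16:45409054-45409303, minus strand: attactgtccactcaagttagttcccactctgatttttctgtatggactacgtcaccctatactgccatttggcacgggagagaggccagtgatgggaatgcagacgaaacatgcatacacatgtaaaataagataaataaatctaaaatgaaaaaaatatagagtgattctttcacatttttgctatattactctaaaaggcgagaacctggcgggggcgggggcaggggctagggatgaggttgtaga
Tigit, chr16:43664185-43664434, minus strand: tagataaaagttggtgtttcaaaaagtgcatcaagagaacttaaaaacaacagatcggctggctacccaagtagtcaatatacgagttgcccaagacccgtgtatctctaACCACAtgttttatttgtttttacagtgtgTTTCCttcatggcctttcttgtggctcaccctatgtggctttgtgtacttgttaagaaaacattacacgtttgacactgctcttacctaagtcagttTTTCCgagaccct
The Havcr2 window held 1 AP-1 and 1 RUNX match, the Btla window 1 RUNX match, the Tigit window 2 NFAT matches and 1 RUNX match, and the Cd200 window none. The windows of Ctla4 and Pdcd1, not printed here, held 1 and 2 NFAT matches and none of the other motifs. Among 32851 annotated windows of the same length, 55.6% held the NFAT core, 6.75% the AP-1 motif, 13.8% the TCF/LEF motif and 14% the RUNX motif. A match describes these letters alone and is not evidence that a factor binds there.

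Lag3, Tigit and Ctla4 were read in nearly every cell of both tissues, and the other 5 members were each read in only some of the cells. Every small intestine cell and every cell of both p1 sets had a read of Ctla4, as did 97.5% of the p2 set, and Lag3 in at least 99.2% of cells everywhere. Tigit was read in 98.5% of small intestine cells, in 100% and 99.3% of the p1 sets and in 91.8% of the p2 set (95% exact binomial interval 85.4% to 96%). These 3 genes therefore separate few cells by presence alone.

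**Figure D1:**
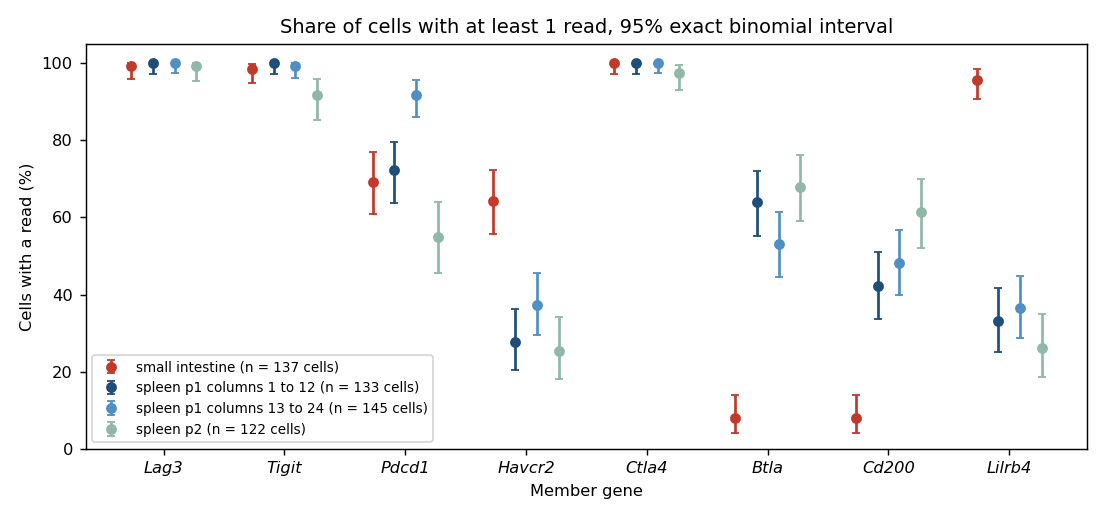
Share of kept cells with at least 1 read of each member gene (y axis, percent) in the small intestine and the 3 spleen sets; points are shares and bars are 95% exact binomial intervals for counting error. Havcr2 and Lilrb4 sit higher in the small intestine than in any spleen set, Btla and Cd200 sit at 8.03% there against 42.1% to 68%, and the 4 intervals of Pdcd1 spread from the p2 set to the second p1 set.

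The tissues differed in which of the remaining members were read. A read of Havcr2 was found in 64.2% of the cells of the small intestine (interval 55.6% to 72.2%) against 27.8%, 37.2% and 25.4% of the cells of the spleen sets. Lilrb4 was read in 95.6% of small intestine cells (90.7% to 98.4%) against 33.1%, 36.6% and 26.2%. For both genes the interval of the small intestine lay above all 3 intervals of the spleen. Btla went the other way, at 8.03% of the intestinal cells (4.08% to 13.9%) against 63.9%, 53.1% and 68%, and Cd200 was read in 8.03% of small intestine cells against 42.1%, 48.3% and 61.5%. Pdcd1 followed neither pattern: it was read in 69.3% of small intestine cells and in 72.2%, 91.7% and 54.9% of the spleen sets, so the spleen sets differed more among themselves than from the small intestine. In thinned cells the shares were within 7 percentage points of these for every member and set.

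Detection was not all-or-nothing. Of all cells with a Cd200 read, 42.9% held only 1 to 9 reads, compared with 20.5% for Havcr2, 20.3% for Btla, 14.8% for Pdcd1 and 10.4% for Lilrb4. For Lag3, Tigit and Ctla4 that share was 1.87%, 4.01% and 2.25%. At a stricter call of 10 reads or more, Havcr2 was present in 52.6% of small intestine cells against 22.6%, 31.7% and 15.6% of the spleen sets. Cd200 was then present in 2.92% of small intestine cells against 24.8%, 26.2% and 37.7%, so the order of the tissues was kept for both. Without molecular identifiers reads are not molecules, and whether these low counts came from the cell itself was not tested.

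**Figure D2:**
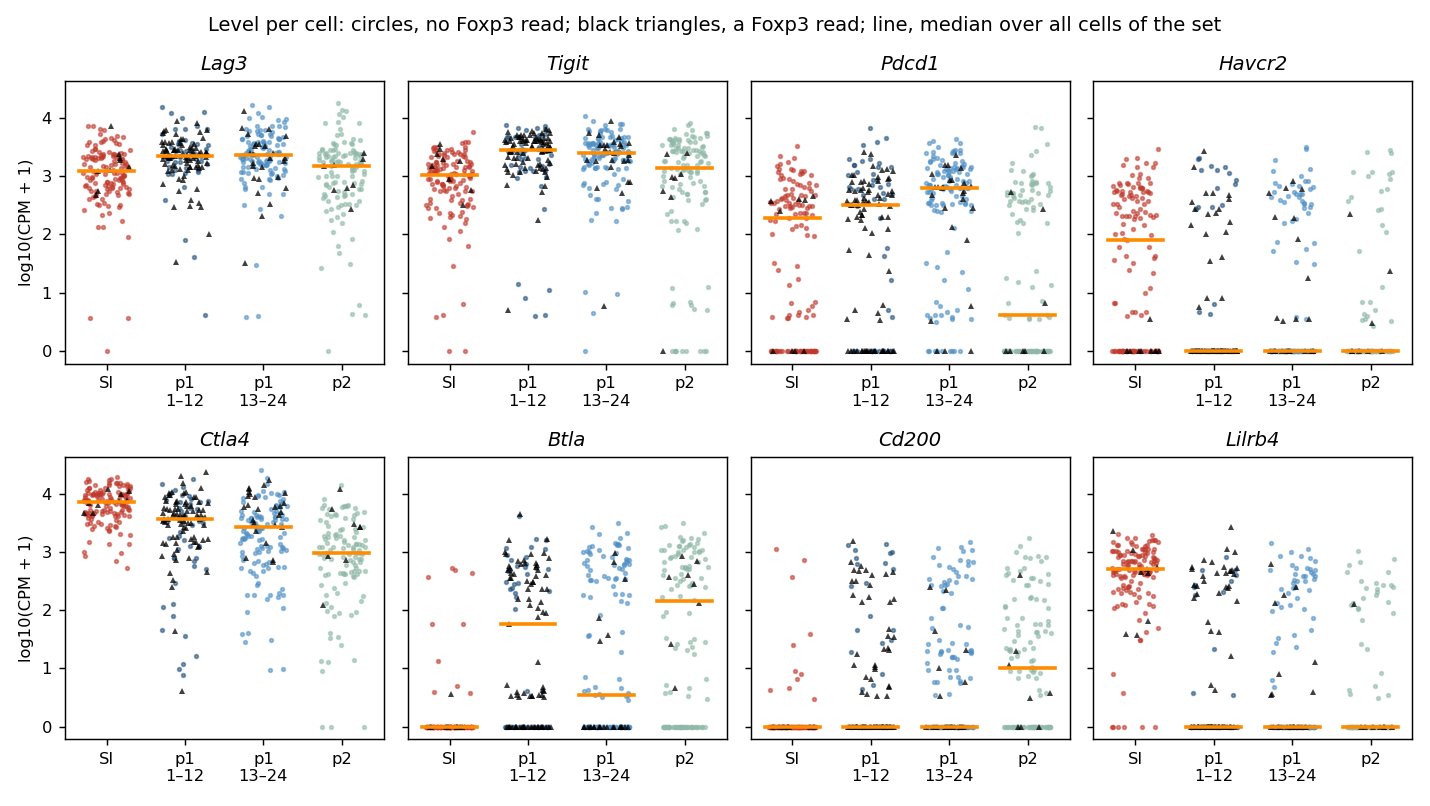
Level of each member gene in every kept cell, as log10(CPM + 1), for the small intestine (SI) and the 3 spleen sets (p1 columns 1–12, p1 columns 13–24, p2); circles are cells without a Foxp3 read, black triangles cells with one, and orange lines the median of all cells of the set. Lag3, Tigit and Ctla4 form 1 broad group of cells near the top of the axis. The other members have cells at 0, cells with 1 to 9 reads and cells at a higher level. For Cd200 the cells with 1 to 9 reads make up 42.9% of those with a read.

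In cells that held a read, the level of Havcr2 in the intestine fell between those of the spleen sets, by median. Small intestine cells with a Havcr2 read held a median of 331.9 CPM (the reads of a gene scaled to 1000000 reads of gene rows per cell), and those of the spleen sets held 299.5, 379.5 and 226.6 CPM. For Pdcd1 the medians in read cells were 346.6 CPM in the intestine against 500.3, 674.8 and 414.7 CPM in the spleen sets. Lilrb4 differed in level as well, since its read cells in the spleen sets had medians of 292.8, 246.6 and 148.6 CPM, all below the median of 507.2 CPM over all small intestine cells, zeros included. Btla in its read spleen cells had medians of 319.2, 397.9 and 507.2 CPM, and its 11 read small intestine cells a median of 56.2 CPM. Cd200 was the member with the lowest levels where read, at medians of 108.1, 45.5 and 46.7 CPM in the spleen sets and 8.11 CPM in 11 small intestine cells.

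Over all cells of a set, zeros included, 3 members were at least 1.5-fold higher in the small intestine than in each of the spleen sets and 3 were lower. Of 8389 genes, 7.65% were called higher and 20% lower by this rule, and the median gene had a log2 difference of -0.20, -0.22 and -0.23 against the 3 sets. Differences are of log2(mean CPM + 1), which understates the change of low genes. Ctla4 averaged 7617 CPM in the small intestine (SD over cells 4226, highest 19618) and 4538, 3849 and 1880 CPM in the spleen sets, a log2 difference of 0.75, 0.98 and 2.02. Individual cells of the tissues overlapped widely, since the spleen sets reached 23125, 25928 and 14250 CPM. Havcr2 averaged 306.8 CPM against 166.8, 193.8 and 144.5 CPM, a log2 difference of 0.87, 0.66 and 1.08. Its cells spanned 0 to 2950 CPM in the small intestine, and 0 to 2744, 3228 and 2835 CPM in the spleen sets. Lilrb4 averaged 628.9 CPM against 129.9, 118.2 and 59.6 CPM, a log2 difference of 2.27, 2.40 and 3.38.

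Btla, Cd200 and Tigit were the members called lower. Btla averaged 14.4 CPM in the small intestine against 328.2, 316.5 and 455.4 CPM, a log2 difference of -4.42, -4.36 and -4.89. Cd200 averaged 16.7 CPM against 123.3 CPM in the first p1 set and 127.1 CPM in the p2 set, a log2 difference of -2.81, -2.72 and -2.85 against the 3 sets. Tigit had a log2 difference of -1.27, -1.16 and -0.63, from 3049, 2837 and 1956 CPM in the spleen sets to 1266 CPM in the small intestine. With pooled size factors, which put the median gene at 0.01 and the share of all genes called at 11.5% higher and 14.4% lower, the call of Tigit was lost (mean difference over the sets -0.83) while Havcr2, Ctla4, Lilrb4, Btla and Cd200 kept theirs. Havcr2 lost its call when cells with a Foxp3 read were left out, since the mean of the first p1 set was then 294.3 CPM against 328.4 CPM in the small intestine. Lag3 and Pdcd1 were called in neither direction, but without the p2 set both would count as lower.

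Levels can be compared between members only per length of the gene's exons. On that scale (mean CPM per kilobase of exon) Ctla4 led in the small intestine at 3269, followed by Tigit at 1378, Lag3 at 803.1 and Pdcd1 at 183.8. Lilrb4 and Havcr2 followed at 120.3 and 112.8, and Cd200 and Btla were last at 5.04 and 4.24. In all 3 spleen sets Tigit led, at 3318, 3087 and 2128. Ctla4 was next in both p1 sets, at 1948 and 1652, but in the p2 set it stood at 806.9 behind Lag3 at 1038. Pdcd1 came below these 3 genes and above the other 4 in every set. Havcr2 and Lilrb4 were within their spread over cells of each other in the small intestine, and so were Btla and Cd200 there.

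The number of members read per cell was close in the 4 sets although the members were not the same. A thinned cell held a mean of 5.33 of the 8 members in the small intestine (SD over cells 0.904) and of 5.24, 5.50 and 5.13 in the spleen sets (SDs 1.11, 1.10 and 1.13). This closeness depended on which members were counted. Without Lilrb4, which nearly every small intestine cell held, the means were 4.37 against 4.92, 5.15 and 4.88. Then 6 or more of the other 7 were read in 6.06% of small intestine cells against 29.7%, 37.2% and 25.9%. Btla and Cd200, read in few small intestine cells, weigh the other way, and leaving out a member other than Lilrb4 was not tried. No thinned cell held fewer than 2 members. At least 6 of the 8 were read in 47.7% of small intestine cells (39% to 56.6%) and in 39.8%, 49.6% and 35.7% of cells of the spleen sets, and the 4 intervals overlapped. At 10 reads or more the shares fell to 35.6% in the small intestine and 21.9%, 29.9% and 17% in the spleen sets, where the small intestine interval (27.5% to 44.4%) lay above that of the p2 set (10.5% to 25.2%). All 8 members were read together in 0 small intestine cells and in up to 4.38% of the cells of a spleen set.

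**Figure D3:**
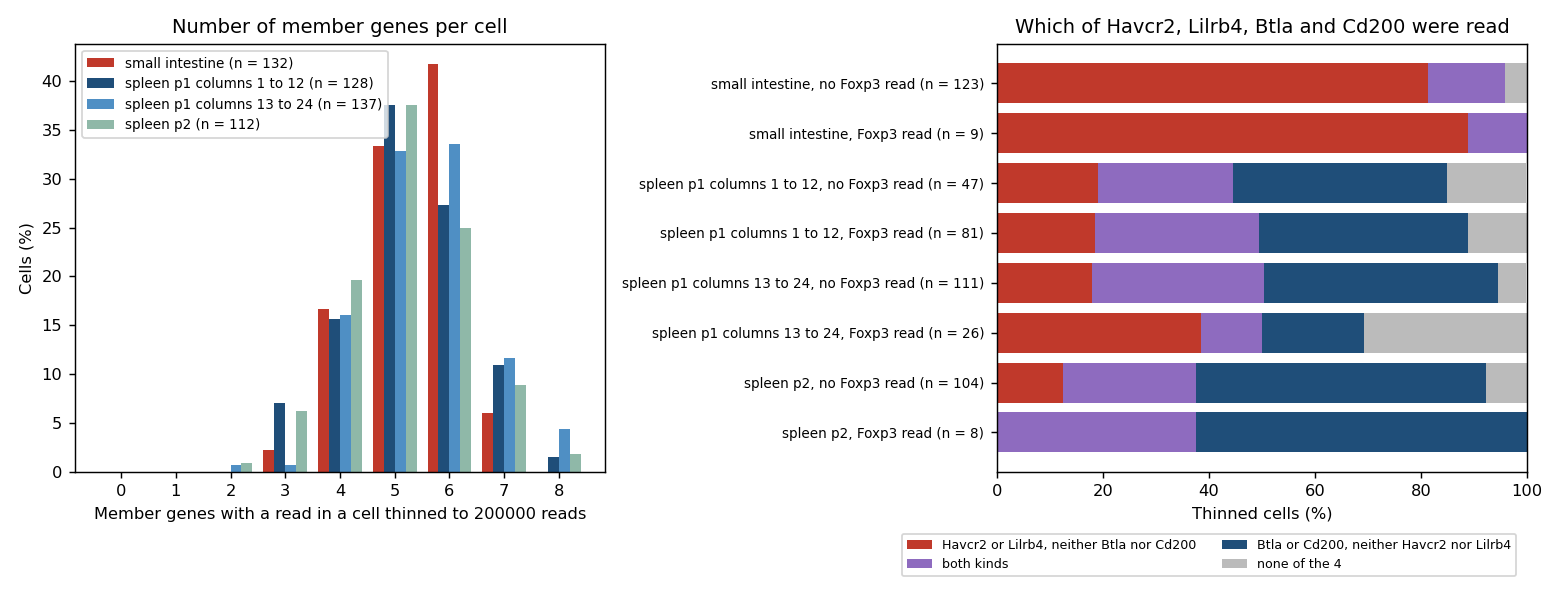
Left, share of thinned cells (y axis, percent) by the number of member genes read (x axis) in the small intestine and the 3 spleen sets. Right, share of thinned cells (x axis, percent) by which of Havcr2, Lilrb4, Btla and Cd200 had a read, for cells without and with a Foxp3 read. The 4 sets peak at 5 or 6 members, while cells with Btla or Cd200 and neither Havcr2 nor Lilrb4 make up none of the thinned small intestine cells and 39.4% to 55.4% of cells of the spleen sets.

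Beyond the near-constant trio of Lag3, Tigit and Ctla4, read together in 95.5% of small intestine cells and in 96.9%, 98.5% and 89.3% of the spleen sets, cells differed in which other members were read. In the small intestine 81.8% of cells (74.2% to 88%) had a read of Havcr2 or Lilrb4 and none of Btla or Cd200, against 18.8%, 21.9% and 11.6% of the spleen sets. The opposite class, with Btla or Cd200 and neither of the other pair, held no thinned cell of the small intestine, and a count of 0 there still permits 2.27% of cells. Only 3.79% of small intestine cells had a read of neither Havcr2 nor Lilrb4, so few could fall in this class. The class held 39.8%, 39.4% and 55.4% of the cells of the spleen sets. What the shares of single members alone would give for each class was not computed. Both kinds were read in 14.4% of small intestine cells and in 28.9%, 28.5% and 25.9% of the spleen sets. This grouping into pairs was chosen after the shares had been seen.

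Across all thinned cells 46 combinations occurred. How often the shares of single members alone would give each combination was not computed. A frequent combination therefore need not mean that its members went together. Over the 28 pairs of members, cells with both genes were a median of 1 times the count that the shares alone would give, in every set. Pairs with Lag3, Tigit or Ctla4 were bound to lie near 1, since nearly every cell held these genes. The median therefore cannot show whether the other members went together. In the p2 set Havcr2 with Lilrb4 stood at 1.93 times that count and Cd200 with Lilrb4 at 0.585 times. The most frequent combination joined Lag3, Tigit, Pdcd1, Havcr2, Ctla4 and Lilrb4 and was found in 65 cells. It made up 34.1% of small intestine cells (26.1% to 42.8%) but 4.69%, 7.30% and 3.57% of the spleen sets. Next came Lag3, Tigit, Pdcd1, Ctla4, Btla and Cd200, in 48 cells, with 0 in the small intestine and 12.5%, 13.9% and 11.6% of the spleen sets. At 10 reads or more the first of these was still the most frequent, in 56 cells, but the combination with Btla and Cd200 fell to 18 cells (3.12%, 6.57% and 4.46% of the spleen sets), behind 9 others. Lag3, Tigit, Pdcd1 and Ctla4 without other members then came next, in 49 cells. At 1 read, the 5-gene combination of Lag3, Tigit, Pdcd1, Ctla4 and Lilrb4 was found in 44 cells, 22 of them intestinal. The trio with Pdcd1 and Btla was found in 29 cells, all from the spleen. The trio with Btla and Cd200 but no Pdcd1 was found in 28 spleen cells, 17 of them from the p2 set. The small intestine cells fell into 19 combinations, the 5 most frequent of which took in 79.5% of cells, and the spleen sets into 33, 25 and 36, where the 5 most frequent took in 40.6% to 48.2%.

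**Figure D4:**
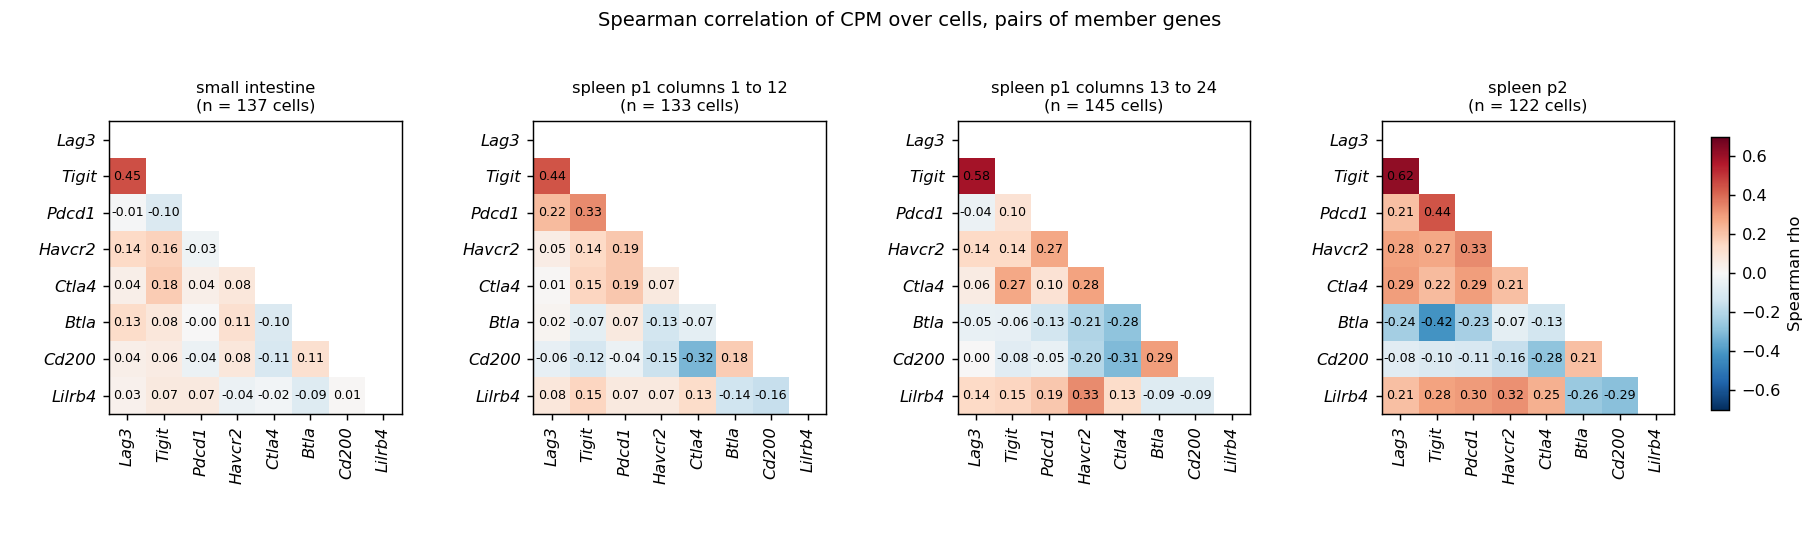
Spearman correlation of CPM over the cells of each set for the 28 pairs of member genes, written in each square and coloured from blue (negative) to red (positive). Lag3 with Tigit is between 0.44 and 0.62 in all 4 panels, Ctla4 with Cd200 is negative in all 4, and the p2 panel has the most strongly coloured squares.

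Of all pairs of members, Lag3 and Tigit rose and fell together most closely. Their Spearman correlation was 0.45 in the small intestine and 0.44, 0.58 and 0.62 in the spleen sets, over all kept cells of each set. It was the only one of the 15 pairs among the 6 members read in at least 25% of cells of every set that reached 0.2 in all 4 sets, where 0.0336% of 8166861 gene pairs did so. None of those 15 pairs was at -0.2 or less in all 4 sets, which 0.00282% of gene pairs were. In cells without a Foxp3 read the correlation was 0.47 in the small intestine and 0.54, 0.62 and 0.64 in the spleen sets, and given the number of genes read it was between 0.44 and 0.62. Cells of a set share their plate and preparation, and correlations over them are descriptions with no test.

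In the spleen alone all 28 pairs could be followed, a comparison added after the data had been seen. Lag3 with Tigit was then the only pair at 0.2 or more in all 3 sets (background 0.212%), and Ctla4 with Cd200 was the only pair at -0.2 or less in all 3 (background 0.0317%). Ctla4 and Cd200 stood at -0.32, -0.31 and -0.28, and at -0.11 in the small intestine, where only 11 cells had a Cd200 read. Since Ctla4 was read in nearly every cell, this pair compares levels of Ctla4 between cells with and without Cd200. Among only the spleen cells with both genes read it was -0.14, -0.19 and -0.25. Btla and Cd200 were read together more often than their shares alone would give, in 38, 36 and 46 cells of the spleen sets against 30.2, 30.3 and 41.8. At 10 reads or more this excess was gone in the first p1 set, with 15 cells against 14.5, and stood at 18 against 13.3 and 24 against 17.7 in the other 2 sets. Their correlation was 0.18, 0.29 and 0.21, and among cells with both genes read it was at most 0.10.

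Havcr2 went with Lilrb4, Pdcd1 and Ctla4 in 2 of the spleen sets and with no member at 0.2 or more in the small intestine or the first p1 set. With Lilrb4 it was at 0.33 in the second p1 set and 0.32 in the p2 set, where 26 and 13 cells held both against 16.5 and 6.73 from the shares alone. It was at 0.07 in the first p1 set and -0.04 in the small intestine. With Pdcd1 it stood at 0.19, 0.27 and 0.33 in the spleen sets and at -0.03 in the small intestine. With Ctla4 it stood at 0.07, 0.28 and 0.21 in the spleen sets and at 0.08 in the small intestine. In the p2 set it also reached 0.28 with Lag3 and 0.27 with Tigit. Without Foxp3-read cells the first p1 set moved to 0.26 for Havcr2 with Lilrb4 and to 0.37 for Havcr2 with Pdcd1, nearer to the other spleen sets. Tigit and Btla reached -0.42 in the p2 set but stood at -0.07, -0.06 and 0.08 elsewhere.

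The 28 correlations had a median of 0.04 in the small intestine and of 0.07, 0.08 and 0.21 in the spleen sets. At least 0.2 was reached by 1 pair in the small intestine and by 3, 6 and 16 pairs in the spleen sets, and -0.2 or less by 0, 1, 3 and 6 pairs. In the p2 set the positive pairs were all 15 pairings of the 6 members other than Btla and Cd200, together with Btla and Cd200 themselves, and each negative pair set Btla or Cd200 against 1 of the other 6. More gene pairs of any kind also reached 0.2 in that set, at 4.21% of pairs against 1.89% to 2.42% in the other 3 sets. Its Il10 level was also the lowest, with a read in 77.9% of cells against 92.4% to 99.3%. The part of either in the wider spread of that set was not tested.

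Cells with a Foxp3 read had lower mean levels of Havcr2, Pdcd1, Cd200 and Btla in all 4 sets, as did 9.86% of 8388 genes. For Btla and Cd200 the small intestine says little. Each was read in only 11 of its cells, and only 9 of its cells had a Foxp3 read. In the first p1 set, which holds 85 such cells, 3 members were at least 1.5-fold lower in them and 1 was higher, where 17.9% of 8213 genes were called lower and 20.3% higher. Havcr2 averaged 94.9 CPM in its cells with and 294.3 CPM in those without a Foxp3 read (log2 difference -1.62), and Cd200 87.2 against 187.4 CPM (-1.09). Pdcd1 averaged 919.2 CPM without a Foxp3 read and was lower by a log2 difference of -1.28 with one. In the other sets the differences were -0.80 (small intestine), -0.57 and -2.06 for Pdcd1 and -8.00, -0.85 and -2.24 for Havcr2. The small intestine value of Havcr2 rests on 9 cells, of which 1 held a read (11.1%) against 68% of the cells without Foxp3. Detection of Havcr2 did not follow its mean in every set, since it was read in 46.2% of Foxp3-read cells against 35.3% of the others in the second p1 set and in 37.5% against 24.6% in the p2 set. Reads of Pdcd1 were found almost as often with Foxp3 as without it in the p1 sets, in 70.6% against 75% and in 88.5% against 92.4% of cells.

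Lilrb4 was the member called higher in Foxp3-read cells of the first p1 set, by a log2 difference of 1.18 from 71.3 CPM. Other sets gave another direction: it was at -1.52 in the second p1 set, -1.93 in the p2 set and -0.05 in the small intestine, and it was at 0.41 in the first p1 set once dividing cells were kept. Ctla4 was 0.23 higher in Foxp3-read cells of the first p1 set, and 0.99 and 0.97 higher in those of the second p1 set and the p2 set. Btla was read in 23.1% of the 26 Foxp3-read cells of the second p1 set against 59.7% of the others, but in 67.1% against 58.3% in the first p1 set. In the p2 set all 8 Foxp3-read cells held a Btla read against 65.8% of the others, with medians of 325.5 and 91.1 CPM, although their mean was lower (-0.42). At least 6 members were read in 39.5% of Foxp3-read and 40.4% of other cells of the first p1 set, and in 23.1% against 55.9% in the second p1 set. Of the 65 cells with the most frequent combination, 6 had a Foxp3 read, none of them from the small intestine.

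The genes whose levels were most like those of a member over the cells of all 4 sets were, for 3 members, their neighbours on the chromosome. Ptms, 1240 bases from Lag3, was at 0.49 with it in the small intestine and at 0.43, 0.55 and 0.61 in the spleen sets. Icos, a co-stimulatory receptor gene 44940 bases from Ctla4, was at 0.47, 0.42, 0.30 and 0.34 with it. Gp49a (annotated as Lilr4b), 4568 bases from Lilrb4, was at 0.43, 0.54, 0.68 and 0.52. Of 10 pairs of a member and a gene within 100 kb that could be followed in all 4 sets, these 3 reached 0.2 in every set, against 1.16% of 3279 such gene pairs. Cd4, which lies 16111 bases from Lag3 on the other side from Ptms, was at -0.09 with it in the small intestine and at 0.25, 0.17 and 0.37 in the spleen sets. The test of neighbours was chosen after the nearest genes were known.

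Lilrb4 and Gp49a are close paralogs. Of the 50-base windows of the longest annotated Lilrb4 transcript, 22% also occur in a transcript of Gp49a, so reads from those stretches may be shared, and the values of both are uncertain to that extent. Like Lilrb4, Gp49a was read in nearly every small intestine cell (98.5%) and in 34.6%, 33.8% and 25.4% of the spleen sets. In the p2 set the 2 genes were read together in 16 cells against 6.47 from their shares alone.

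Other close genes of the members were Cd2, a T cell adhesion receptor gene, for Tigit (0.29, 0.46, 0.39 and 0.52) and Cxcr6, a chemokine receptor gene, for Pdcd1 (0.20, 0.26, 0.38 and 0.37). Sdf4 stood near both Lag3 and Tigit, at no less than 0.24 in any set. For Havcr2 the closest was Plek at 0.19 to 0.51. For Btla and Cd200 no gene passed 0.13 in every set, which is a weak correlation of sparse counts. The number of members read per thinned cell had no gene at 0.2 or more, or at -0.2 or less, in all 4 sets (0.0% of 4036 genes in both directions). Gcnt1, which encodes a glycosyltransferase, came closest on the positive side at 0.19 to 0.41. Cells with more members also had more genes read (0.18 to 0.28 in the 4 sets).

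**Figure D5:**
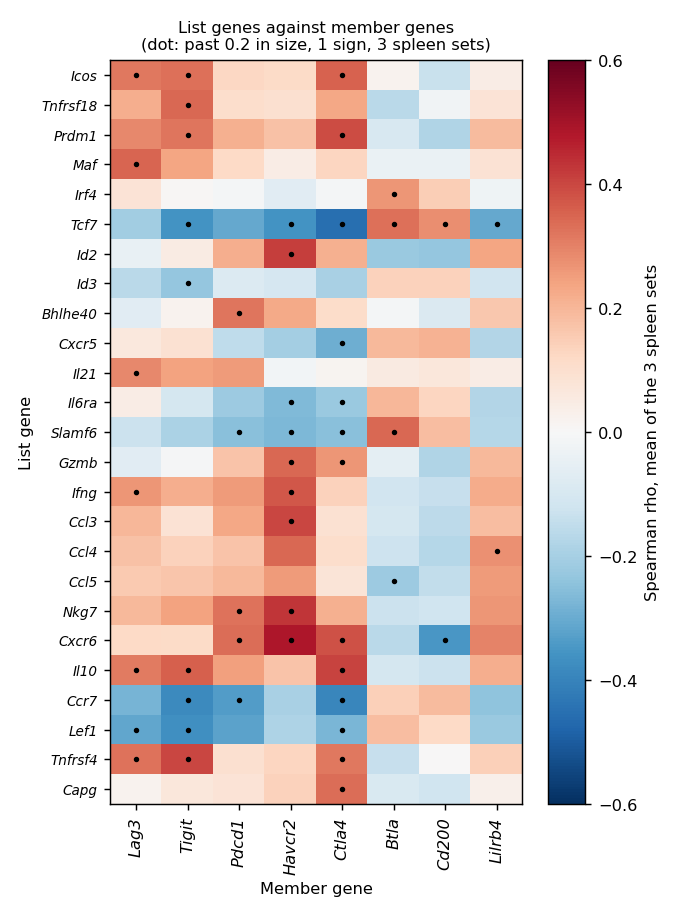
Spearman correlation of genes of the fixed lists (rows) with member genes (columns), as the mean over the 3 spleen sets, for the 25 list genes that passed 0.2 in size with 1 sign in all 3 spleen sets for at least 1 member (dots mark those pairs). Tcf7 is blue for Tigit, Havcr2, Ctla4 and Lilrb4 and red for Btla and Cd200, and the dots in the Havcr2 column lie mostly on genes of effector function.

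Genes of known T cell programs differed in sign between members in the spleen. The genes named here for the spleen alone were chosen after their values were seen. Over all members and other genes, 0.438% of pairs were at 0.2 or more and 0.403% at -0.2 or less in all 3 spleen sets. Tcf7, which encodes TCF1, a factor that keeps T cells able to self-renew, was positive with Btla (0.34, 0.21 and 0.44) and Cd200 (0.29, 0.21 and 0.34). It was negative with Ctla4 (-0.47, -0.46 and -0.43), Havcr2 (-0.27, -0.35 and -0.45), Lilrb4 and Tigit. With 6 members past the threshold it had the most of any list gene, ahead of Slamf6 and Cxcr6 with 4 each. Slamf6, a receptor gene of follicular helper and memory-like cells, was likewise positive with Btla (0.22, 0.36 and 0.45) and negative with Pdcd1, Havcr2 and Ctla4. Tcf7 averaged 394.6 CPM over the spleen sets and 2.27 CPM in the small intestine, where its relations were between -0.15 and 0.11.

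Havcr2 had 6 of the 10 effector genes at 0.2 or more in all 3 spleen sets, and none at -0.2 or less. They were Gzmb (granzyme B) at 0.29, 0.32 and 0.42, Ifng (interferon-γ) at 0.32, 0.31 and 0.49, Ccl3, Nkg7, Cxcr6 and Id2. Cxcr6 reached 0.39, 0.56 and 0.51. In the small intestine, where Gzmb averaged 19277 CPM against 1489 CPM over the spleen sets, the same 6 genes were at -0.06 to 0.17 with Havcr2. Cd200 was negative with Cxcr6 at -0.42, -0.27 and -0.36, and Btla with Ccl5 at -0.20, -0.24 and -0.22.

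Il10 itself, whose reporter was the basis of the sort, moved with Ctla4 (0.42, 0.43 and 0.37), Tigit (0.28, 0.28 and 0.51) and Lag3 (0.24, 0.26 and 0.44) in the spleen sets. In the small intestine these values were 0.19, 0.13 and 0.10. With the number of members read, Il10 was at 0.04 in the small intestine and 0.12, 0.12 and 0.34 in the spleen sets. In the p2 set cells with 4 or fewer members had a median of 4.93 CPM of Il10 (n = 30) and cells with 6 or more 431.3 CPM (n = 40). The former also had fewer genes read (median 2960 against 3451) and fewer reads (310394 against 349644). The part of this in the Il10 difference was not tested. In the small intestine the Il10 medians were 2319 CPM (n = 25) and 2060 CPM (n = 63), so more members did not go with more Il10 there.

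Of 18 transcription factor genes, 7 passed with at least 1 member, in either direction, in the 3 spleen sets. Of the 11 that were read in at least 25% of cells of each spleen set 5 passed, where 3.97% of 4712 genes did so by the same rule. Prdm1 (BLIMP1) was positive with Tigit (0.29, 0.24 and 0.44) and Ctla4 (0.37, 0.40 and 0.40) in the spleen sets, and Maf with Lag3 (0.29, 0.31 and 0.45). Both are known regulators of Il10. Bhlhe40 was at 0.29 with Pdcd1 in the small intestine and at 0.26, 0.28 and 0.43 in the spleen sets. It was read in fewer than 25% of cells of at least 1 set, so the background share does not cover it. Irf4 was positive with Btla at 0.28, 0.29 and 0.23. Tox, Nr4a1, Nr4a2, Nr4a3, Batf and Tbx21 passed with no member, but some of the factors without a call were read in fewer than 25% of cells of a spleen set. Genes of regulatory T cells gave 2 of 8, Tnfrsf4 (OX40) and Capg, both positive with Ctla4 in all 4 sets.

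Few of the ligand and partner genes of the receptors could be followed across cells. Of 17 such genes, 14 were in the tables, and only Icos passed with a member. Only 4 of the 14, Icos among them, were read in at least 25% of cells of each spleen set. Of 4712 genes, 3.97% passed by the same rule. All 10 signalling genes were read that often, and 0 passed. Between the tissues, 7.65% of 8389 genes were called higher in the intestine than in each spleen set and 20% lower. Of the ligand and partner genes, 11 had a mean of at least 10 CPM. Among these, 4 were higher (Cd274, Cd200r1, Cd226 and Cd96) and 2 lower (Pvr and Cd28), with a median difference of 0.42. Of the 10 signalling genes 2 were higher (Inpp5d and Ptpn22) and 3 lower (Ptpn6, Ptpn11 and Sh2d1a), with a median of -0.23, the same as for all genes. Of 10 tested other inhibitory receptor genes, Cd160, Cd244 and Itga2 were higher and none was lower. The memory or naive list was lower in all 8 of its genes (median -5.40) and the follicular list in 6 of 7 tested (median -3.69), while 5 of 10 effector genes were higher (median 1.04).

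B cells and myeloid cells are other known sources of Btla, Cd200, Havcr2 and Lilrb4. In the spleen sets any B cell marker was read in 9.41%, 19.5% and 7.23% of cells with a Btla read and in 4.17%, 5.88% and 5.13% of cells without one. For Cd200 the shares were 7.14%, 15.7% and 6.67% against 7.79%, 10.7% and 6.38%. Any myeloid marker was read in 3.82% of small intestine cells with a Lilrb4 read and in none of the 6 without one. In the spleen sets the shares were 0%, 3.77% and 6.25% with a Lilrb4 read against 3.37%, 1.09% and 6.67% without. For Havcr2 they were 4.55% against 2.04% in the small intestine, and 0%, 3.7% and 3.23% against 3.12%, 1.1% and 7.69% in the spleen sets. The cells had been sorted as CD4+ T cells. Over all cells of the spleen sets, any B cell marker was read in 7.52%, 13.1% and 6.56%. The part of other cell types in these levels was not tested.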

How the data were processed

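Single IL-10eGFP+ CD4+ T cells were sequenced with SMART-seq2, which keeps no molecular identifiers and marks no strand. The deposited values are raw read counts per gene that the authors made with STAR (version not given). The labels name mm10 and the study's methods an older mouse build, and the counting tool was not given in the sources used here. Cells more than 3 median absolute deviations below their tissue's median in log reads or in genes (limits of 170584 reads in the small intestine and 161899 in the spleen) were dropped, as were cells that cyclone in scran 1.30.0 called S or G2M. This kept 137 of 190 small intestine cells and 133 of 192, 145 of 190 and 122 of 192 spleen cells (p1 columns 1 to 12, p1 columns 13 to 24, p2), 537 in all, of which 132, 128, 137 and 112 could be thinned to 200000 reads. Every count column matched a sample.

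CPM was computed without the eGFP reporter row. A gene counted as read at 1 read in a cell. Spearman correlations were taken over kept cells of a set and called at 0.2 or more or -0.2 or less in every set named. Background shares and closest genes used genes read in at least 25% of cells of each set. List genes were not held to that share. Tissue and Foxp3 comparisons used log2(mean CPM + 1), a mean of at least 10 CPM and a fold of 1.5. Intervals are exact binomial (Clopper-Pearson, 95%), and the limit behind a count of 0 is 3 counts. With each tissue 1 sample, no p-value was computed.

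The members and gene lists were chosen with earlier results of these data known. Genes named were the members, for each member the 3 genes with the highest lowest correlation over the 4 sets, by the same rule the 10 genes most and least like the number of members read, and list genes that passed in all 4 sets; genes passing in the spleen alone, neighbours and classes of cells were added after the values were seen. Lists of markers of T, B, myeloid, epithelial, NK and CD8 cells were read alongside: epithelial markers were found in 17.2% to 27.8% of cells and NK markers in 2.92% to 11.5%. Alternatives were other pseudocounts, pooled size factors (scran), TMM (edgeR 4.0.16), no cell cycle or low-value filter, medians, thinned or depth-matched cells, a call at 10 reads, cells without a Foxp3 read and 7 members without Lilrb4. Scripts were tested on simulated data. Positions come from the RefSeq annotation of GRCm38.p6, to which 23729 gene rows matched, and exon lengths from GENCODE M21. Analyses ran in R 4.3.3 and Python 3.11.15 with numpy 2.4.6, scipy 1.17.1 and pandas 2.3.3.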

Additional observations from a re-analysis of the deposited data

Results flagged for a closer look

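Cells called S or G2M were left out of the comparisons above, except where they are said to be kept, and they carried the members too. At 200000 reads per cell, 6 or more members were read in 58.1% of such small intestine cells (31 cells, interval 39.1% to 75.5%) and in 59.1%, 62.2% and 46.3% of those of the first p1 set, the second p1 set and the p2 set (44, 37 and 54 cells). Each share was above that of the kept cells of its set, at 47.7%, 39.8%, 49.6% and 35.7%, and every pair of intervals overlapped. Single members differed in direction. In the second p1 set Lilrb4 was read in 62.2% of these cells and Cd200 in 27%, against 35% and 45.3% of kept thinned cells. In the p2 set Pdcd1 was read in 70.4% and Cd200 in 42.6%, against 53.6% and 58.9%, and in the small intestine Lilrb4 in 90.3% against 95.5%. The difference was not tested.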

How the results depend on the processing

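Over all alternatives 49 values moved by more than the spread used or lost their count, 1 reversed, and the others kept within it. Without Lilrb4 the mean number of members read was 4.37 in the small intestine and 4.92, 5.15 and 4.88 in the 3 spleen sets, and the share with 6 or more 6.06%, 29.7%, 37.2% and 25.9%, so the small intestine became the lowest, with 1 gene fewer to be read in every set. At 10 reads the means were 4.98, 4.73, 4.9 and 4.41 and the shares 35.6%, 21.9%, 29.9% and 17%. The median correlation of the pairs went to 0.0 without Lilrb4 in the second p1 set and to 0.06 in the p2 set among cells with both genes read. Members called lower in the small intestine went from 3 to 1 (Btla) with median CPM and to 5 without the p2 set, an alternative chosen after seeing the data that added Lag3 and Pdcd1. With median CPM the log2 difference of Pdcd1, averaged over the spleen sets, turned from -0.72 to 1.04, as the median of the p2 set was 3.12 CPM. The member called higher in Foxp3-read cells went from 1 to 0 with no cell cycle filter and with median CPM. Beyond these constructions, the cause was not tested. No paired analysis was possible because the labels number no replicates and name no animal. At this depth a missing read does not show that a cell lacked a gene.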
